A study of Mus musculus with 4 samples.

Results

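The genes described here are 36 members of glycolysis, gluconeogenesis and pyruvate control, taken by gene symbol from 2 tables in which the authors compared fasted with fed mice. All 36 were found in both tables, among the 24182 genes the tables share, and all 36 carried an adjusted p in each, so none was lost to the authors' filter on low values. By role they comprise 3 genes of hexose entry and phosphorylation, 8 of upper glycolysis, 6 of lower glycolysis, 2 lactate dehydrogenases, 6 gluconeogenic genes, 4 pyruvate dehydrogenase kinases, 5 genes of the pyruvate dehydrogenase complex and its phosphatases, and 2 subunits of the mitochondrial pyruvate carrier.

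RNA was taken from crypts of the small intestine, the glands in which the intestinal stem cells sit. The mice were C57BL/6J males, 9 weeks old. The 4 groups were fed mice and mice fasted for 24 hours, each without tetracycline and with 21 days of this antibiotic. The series asks how depleting what the labels abbreviate as AKK with tetracycline alters expression in fed and in fasted mice. The labels list 1 sample per group and give no number of animals.

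Glycolysis splits glucose into pyruvate, and gluconeogenesis runs the same path in reverse with its own enzymes at the irreversible steps. Pyruvate can be reduced to lactate in the cytosol or enter mitochondria through the pyruvate carrier, where the pyruvate dehydrogenase complex turns it into acetyl-CoA. Pyruvate dehydrogenase kinases switch that complex off by phosphorylation, which spares glucose carbon when fatty acids are burnt, and phosphatases switch it back on. The small intestine expresses gluconeogenic enzymes in its epithelium, and crypt stem cells are known to depend on how pyruvate is routed.

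Each table held 4 libraries, 2 fasted and 2 fed, where the labels list 1 sample on each side. Their whole counts were recovered from the deposited means, and values below are normalized counts, meaning counts divided by the authors' size factor for that library. The library with the larger size factor on each side is called library 1. The libraries could not be tied to the labelled samples, so they are given as single values with no standard deviation. Nothing states that they came from separate animals, and the authors' p-values then measure the spread between these libraries, which may be technical. Recovered counts summed to between 42579065 and 59543291 per library, leaving out the most abundant genes, whose counts were not solved for; the solved rows hold 75.0% of the summed deposited means without and 76.1% with tetracycline. Log2 changes, standard errors and adjusted p-values are those of the authors' deposited tables unless limma is named or a library is left out. A log2 change with a library left out is the log2 ratio of the mean normalized counts that remain, fasted over fed. The files do not say which side is the numerator; the word order in the tables' names puts fasted over fed, and every direction below depends on that reading.

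The 2 fasted libraries with tetracycline differed most from each other. The SD of the log2 ratio across genes was 1.04 between them, against 0.65 between the fed libraries of that table and 0.58 and 0.49 between the fasted and the fed libraries without tetracycline. Their cell type markers differed too. The summed normalized counts of 4 absorptive enterocyte markers were 130242 in fasted library 1 and 595346 in fasted library 2, against 354080 and 328366 in the fed libraries. For 3 Paneth cell markers the order was reversed, at 120856 and 22887 against 26639 and 42581. Without tetracycline the enterocyte sums were 553959 and 239218 in the fasted and 266005 and 397367 in the fed libraries. The stem cell, enterocyte, Paneth and epithelial markers whose counts were recovered were above 0 in every library of their table. By the authors' test without tetracycline, 3 of 5 Paneth markers and 1 of 8 enterocyte markers rose, while 4 of 4 measured erythrocyte genes, 3 of 6 stromal, 2 of 6 lymphocyte and 1 of 5 myeloid markers fell. With tetracycline 0 markers of these lists were called at an adjusted p under 0.05, while at an unadjusted p under 0.05 DESeq2 gave 2 enterocyte and 1 Paneth marker higher and 4 lymphocyte, 3 myeloid, 2 stromal and 1 erythrocyte marker lower. In bulk RNA such as this, fewer cells of a type and less RNA per cell cannot be told apart, and the part of cell composition in the results below was not tested.

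Fasting raised 2 of the 36 genes in mice without tetracycline, the kinase gene Pdk4 and the gluconeogenic gene Pck1, and none fell at an adjusted p under 0.05 (DESeq2's Wald test as deposited). Across all 18100 genes tested there, 1.06% were called in the upward and 1.22% in the downward direction, 2.27% in all. Under tetracycline 1 of the 36 was raised, Pdk4 again, against 0.333% of 17993 genes upward and 0.267% downward, 0.600% in all. At an unadjusted p under 0.05, the members without tetracycline numbered 5 higher and 6 lower (all genes, 4.59% and 6.21%, together 10.8%), and with tetracycline 3 higher and 1 lower (all genes, 2.27% and 3.06%, together 5.34%). The median log2 change of the 36 was -0.18 without and -0.03 with tetracycline, beside 0.02 and -0.02 over all genes with a mean of at least 1. Over the libraries left out in turn, the members' median ran from -0.22 (no fasted library 1) to -0.10 (no fasted library 2) without tetracycline, and from -0.38 (no fasted library 2) to 0.23 (no fasted library 1) with it.

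**Figure D1:**
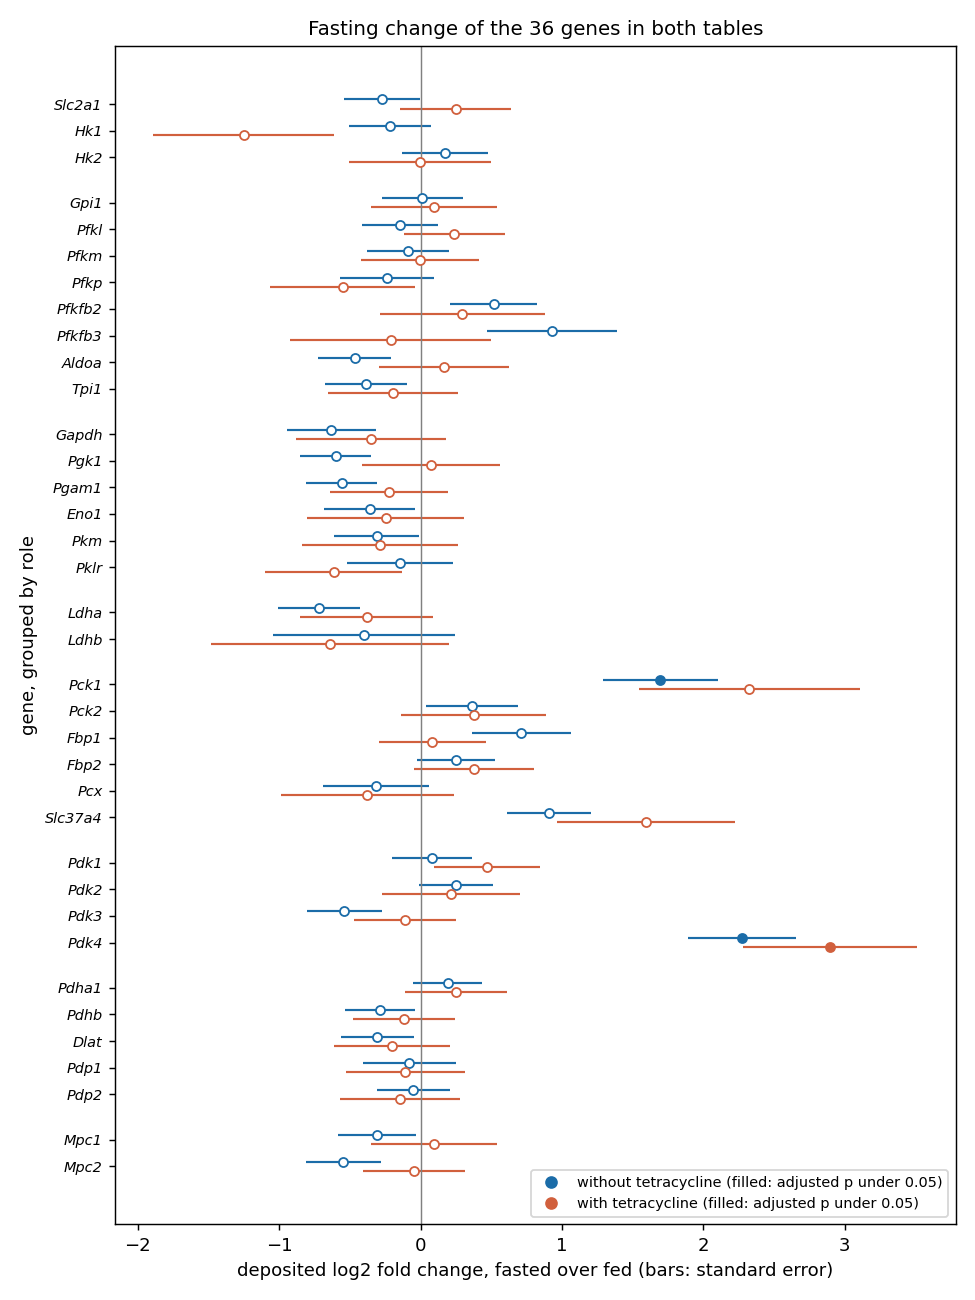
Deposited log2 fold change, fasted over fed, for each of the 36 genes (x axis), grouped by role (y axis), without (blue) and with (orange) tetracycline. Points are the authors' estimates, bars their standard errors, and filled points passed an adjusted p of 0.05: Pdk4 in both tables and Pck1 without tetracycline.

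Pdk4 encodes a pyruvate dehydrogenase kinase that is strongly induced by fasting in muscle, heart and liver. The gene (ENSMUSG00000019577) lies on chromosome 6, minus strand, from 5483351 to 5496309 in GRCm38. Without tetracycline its normalized counts were 12575 and 13634 in the fasted libraries and 1593 and 3825 in the fed ones. The fasted libraries lay close together, and both were above both fed libraries. The fold was 4.84, a log2 change of 2.27 (SE 0.38, 95% interval 1.53 to 3.02, adjusted p = 7.82e-07).

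With tetracycline Pdk4 stood at 11342 and 40913 in the fasted libraries and at 3425 and 3596 in the fed ones. Both fasted libraries were again above both fed libraries, but they differed from each other more than the fed ones did. The fold was 7.44, a log2 change of 2.90 (SE 0.62, 95% interval 1.68 to 4.11, adjusted p = 0.00111). The log2 change was 1.69 without fasted library 2 and 3.54 without fasted library 1. Fasted library 1 had the lowest and fasted library 2 the highest enterocyte sum of the table. Without tetracycline the fasted libraries had enterocyte sums of 553959 and 239218, and Pdk4 counts of 12575 and 13634. The part of cell composition in the Pdk4 values was not tested. In limma on the recovered libraries, an alternative chosen after seeing the data, Pdk4 passed without tetracycline (adjusted p = 0.0386) and not with it (adjusted p = 0.967, unadjusted p = 0.00704). Among all genes that fit called 76 of 16818 (0.452%) in the table without tetracycline and 0 of 17132 (0.00%) in the other. Leaving out a library moved these counts widely, and the calls of members with them. In the table without tetracycline, limma called 30 of 16818 genes (0.178%) without fed library 1, Pdk4 not among them, and 752 (4.47%) without fasted library 2. In the table with tetracycline it called 266 of 17132 genes (1.55%) without fasted library 1, Pdk4 among them.

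The other 3 kinases did not pass the test in either table. Pdk1, which is known as a hypoxia target, had a log2 change of 0.08 (SE 0.28) without and 0.47 (SE 0.38) with tetracycline. Pdk2, the kinase found in most tissues, stood at 0.25 (SE 0.26) and 0.22 (SE 0.49). Pdk3 had a negative estimate: its normalized counts without tetracycline were 1467 and 1230 in the fasted and 1843 and 2075 in the fed libraries, so both fasted libraries were below both fed ones (log2 change -0.54, SE 0.27, adjusted p = 0.436). With tetracycline the same order held over a narrow range, at 1404 and 1551 against 1616 and 1573 (log2 change -0.11, SE 0.36). Pdk4 was the one kinase gene of 4 that was called.

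The enzyme that these kinases act on had estimates near 0. Pdha1, the subunit that the kinases phosphorylate, had 20402 and 23122 normalized counts in the fasted and 19395 and 18724 in the fed libraries without tetracycline, and 21109 and 23034 against 16800 and 20262 with it. Both fasted libraries were above both fed ones in each table, yet the log2 changes were 0.19 (SE 0.25) and 0.25 (SE 0.36). Pdhb, the partner subunit, and Dlat, the acetyltransferase core, had negative estimates of -0.29 (SE 0.24) and -0.30 (SE 0.26) without tetracycline and of -0.11 (SE 0.36) and -0.20 (SE 0.41) with it. For the phosphatases Pdp1 and Pdp2, which undo the kinases' work, the estimates ran from -0.15 to -0.05 over both tables. None of these 5 genes passed the test at an adjusted or an unadjusted p under 0.05. Limma, which called Pdk4 alone of the 36 genes without tetracycline, called none of them either.

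Pck1 encodes cytosolic phosphoenolpyruvate carboxykinase, which commits oxaloacetate to gluconeogenesis. The gene (ENSMUSG00000027513) lies on chromosome 2, plus strand, from 173153048 to 173159273 in GRCm38. Without tetracycline its normalized counts were 45242 and 40304 in the fasted libraries and 7021 and 19372 in the fed ones. Both fasted libraries were above both fed ones, and the fed ones differed from each other more than the fasted ones. Pck1 rose 3.24-fold, a log2 change of 1.70 (SE 0.41, 95% interval 0.90 to 2.49, adjusted p = 0.00289). The log2 change was 1.14 without fed library 1 and 2.61 without fed library 2, and limma on all libraries did not call it (adjusted p = 0.154). Limma did call Pck1 without fasted library 2, a fit that called 4.47% of all genes.

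With tetracycline Pck1 was at 20983 and 157880 in the fasted libraries and at 17217 and 18488 in the fed ones. Fasted library 1 was only a little above the fed libraries, and fasted library 2 was far above them. The fold of 5.01 (log2 change 2.32, SE 0.78) did not pass the test (adjusted p = 0.254), and without fasted library 2 the log2 change was 0.23, against 3.14 without fasted library 1. Limma called Pck1 in this table when fasted library 1 was left out, a fit that called 1.55% of all genes, and not on all libraries. Fasted library 2 was also the library with the highest enterocyte sum. Without tetracycline the fasted libraries had enterocyte sums of 553959 and 239218, and Pck1 counts of 45242 and 40304. The part of cell composition in the Pck1 values was not tested.

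**Figure D2:**
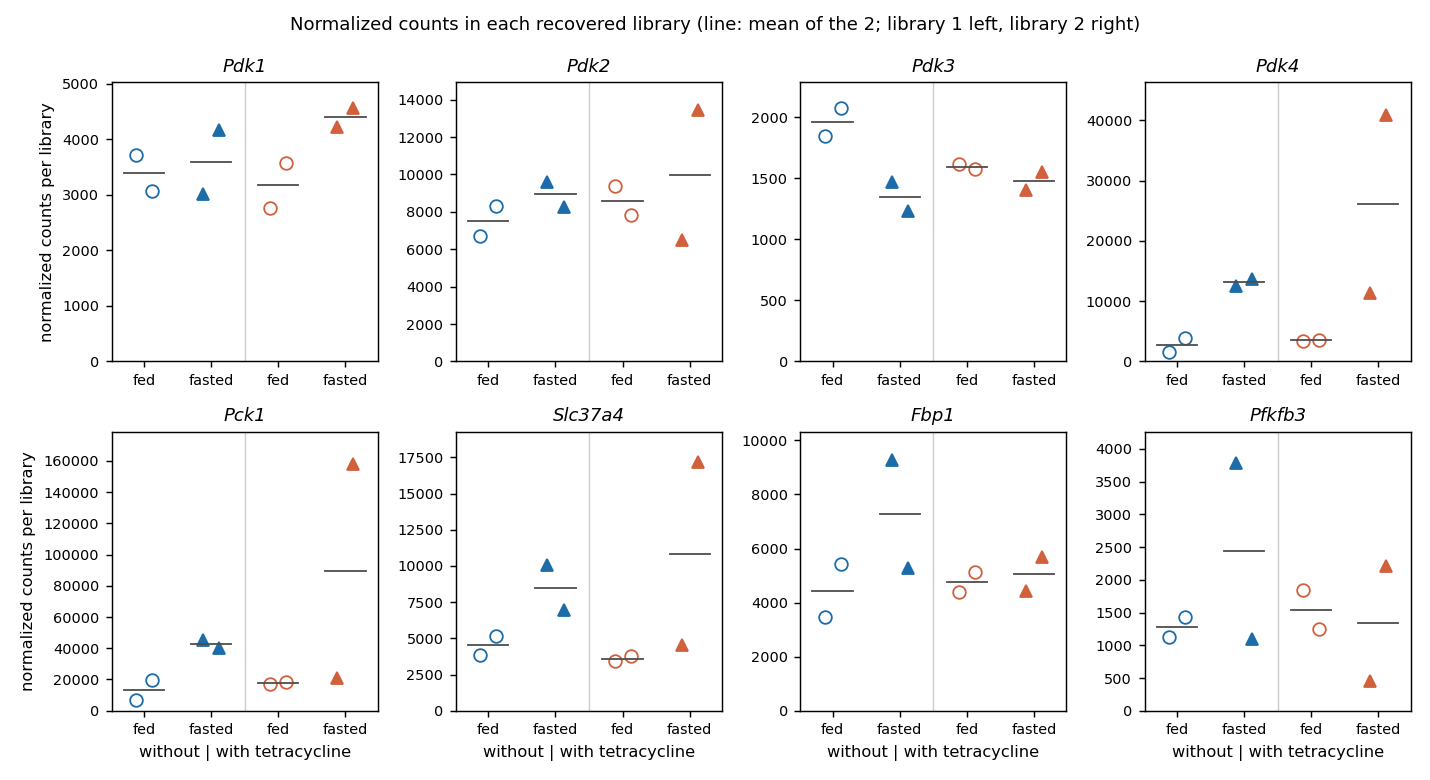
Normalized counts (y axis, from 0) of 8 genes in each recovered library, fed (circles) and fasted (triangles), without (blue) and with (orange) tetracycline, with a line at the mean of the 2 libraries. Pdk4 is higher in both fasted libraries of each table, while Pck1 and Slc37a4 with tetracycline stand far apart in 1 fasted library.

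The stretches upstream of Pdk4 and Pck1 are shown because these are the genes that passed the test. Each runs 5′ to 3′ from 250 to 51 bases before the RefSeq start in GRCm38.p6. They lie at chr6:5496329-5496528 on the minus strand and chr2:173152823-173153022 on the plus strand.
Pdk4: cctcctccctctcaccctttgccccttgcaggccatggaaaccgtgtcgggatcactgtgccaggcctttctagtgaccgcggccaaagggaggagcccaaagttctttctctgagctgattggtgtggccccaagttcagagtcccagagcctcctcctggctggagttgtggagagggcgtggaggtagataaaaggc
Pck1: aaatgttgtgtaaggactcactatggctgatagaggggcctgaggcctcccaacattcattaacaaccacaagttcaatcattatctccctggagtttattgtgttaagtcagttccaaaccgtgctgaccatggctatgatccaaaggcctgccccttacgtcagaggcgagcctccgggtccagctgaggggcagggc
Neither stretch held an exact match to any of the 6 motifs searched on both strands, so no letters are in capitals. Forms that differ from these letters by a base were not searched for. The motifs were the hypoxia response core ACGTG, the E-box CACGTG (which contains ACGTG), the direct repeat of nuclear receptors with a spacer of 1 base, the forkhead motif GTAAACA, the cAMP response element TGACGTCA and the full palindrome of the glucocorticoid response element. In windows of 300 bases, from 250 before to 50 after a start, RefSeq had entries for 35 of the 36 genes. The direct repeat, the forkhead motif and the glucocorticoid palindrome were in 0 of 55 windows of the members, and in 0.0396%, 3.65% and 0.00913% of all 32841 windows. An exact match to these letters is a description of the window and does not mark a site that is used. The lack of an exact match does not show that a site is absent.

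Slc37a4, which encodes the transporter that carries glucose 6-phosphate into the endoplasmic reticulum, was the member just outside the threshold without tetracycline. Its normalized counts were 10039 and 6954 in the fasted and 3859 and 5195 in the fed libraries, with both fasted libraries above both fed ones. The log2 change was 0.91 (SE 0.30, adjusted p = 0.0843). With tetracycline the values were 4544 and 17159 against 3407 and 3784 (log2 change 1.59, SE 0.63, adjusted p = 0.575). As for Pck1, fasted library 2 stood far above the rest. The log2 change was 0.34 without it and 2.25 without fasted library 1.

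Fbp1, the fructose bisphosphatase that opposes phosphofructokinase, had 9268 and 5286 normalized counts in the fasted and 3451 and 5434 in the fed libraries without tetracycline. The sides overlapped, and the log2 change of 0.71 (SE 0.35) did not pass the test (adjusted p = 0.424). With tetracycline the estimate was 0.08 (SE 0.38). Fbp2, the related bisphosphatase first known from muscle, and Pck2, the mitochondrial carboxykinase, had estimates from 0.25 to 0.38 over both tables, with overlapping sides. Pcx, pyruvate carboxylase, which makes the oxaloacetate that Pck1 uses, went the other way at -0.31 (SE 0.38) and -0.38 (SE 0.61). Of the 6 gluconeogenic genes, 5 had positive estimates in each table, and the median log2 change was 0.54 without and 0.38 with tetracycline. With 1 gene called of 6 without and 0 of 6 with tetracycline, the group holds Pck1 as its one called gene. At an unadjusted p under 0.05, DESeq2 gave 3 of the 6 without and 2 of the 6 with tetracycline, and limma on all libraries called 0 of the 6 in either table. That 0 turned on single libraries: limma called 3 (Fbp1, Pck1 and Slc37a4) without tetracycline when fasted library 2 was left out, and 2 (Pck1 and Slc37a4) with tetracycline when fasted library 1 was left out. Those fits called 4.47% and 1.55% of all genes.

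Glucose entry and upper glycolysis held no called gene. At an unadjusted p under 0.05, DESeq2 gave 1 of these 11 genes without tetracycline (Pfkfb3) and 1 with it (Hk1), and limma on all libraries called 0 in either table. Without fasted library 2 in the table without tetracycline, limma called Pfkfb3, in a fit that called 4.47% of all genes. Slc2a1, the basal glucose transporter, was at 769 and 803 normalized counts in the fasted and 959 and 938 in the fed libraries without tetracycline, both fasted libraries being lower (log2 change -0.27, SE 0.27). With tetracycline its sides overlapped (log2 change 0.25, SE 0.39). Hk2, an inducible hexokinase, had estimates of 0.17 (SE 0.30) and -0.0027 (SE 0.50).

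Hk1, the hexokinase of most tissues, had the lowest estimate of all members with tetracycline. Its normalized counts there were 844 and 369 in the fasted and 2114 and 775 in the fed libraries. Fed library 1 stood above the other 3, and the sides overlapped. The log2 change was -1.25 (SE 0.64, adjusted p = 0.936), and without fed library 1 it was -0.35, against -1.97 without fasted library 1 and -1.80 without fed library 2. The same library had the highest sum of lymphocyte markers, 55943 against 3159 to 18475 in the other 3 libraries of the table. It was also highest for the myeloid (5008), stromal (3692), muscle (829), erythrocyte (127568) and pancreatic acinar (1136) markers. It was not highest for liver markers or for any list of intestinal epithelial cells. The part of cell composition in the Hk1 value was not tested. Without tetracycline Hk1 was at -0.22 (SE 0.29), running from -0.37 without fasted library 2 to -0.08 without fasted library 1.

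Pfkfb3 makes fructose 2,6-bisphosphate, the activator of phosphofructokinase. Its normalized counts without tetracycline were 3782 and 1101 in the fasted and 1133 and 1426 in the fed libraries. The estimate came from fasted library 1, which was the one high library: the log2 change was 0.93 (SE 0.46, adjusted p = 0.427), and -0.22 when that library was left out. With tetracycline the values were 450 and 2219 against 1840 and 1248 (log2 change -0.21, SE 0.71), and the estimate was 0.52 without fasted library 1 and -1.78 without fasted library 2. Its relative Pfkfb2 was at 2014 and 1352 in the fasted and 1310 and 1043 in the fed libraries without tetracycline (log2 change 0.52, SE 0.31), with no overlap there and overlap with tetracycline (0.30, SE 0.58).

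The phosphofructokinases catalyse the committed step of glycolysis. Pfkl, the liver type, was at -0.15 (SE 0.27) without and 0.24 (SE 0.36) with tetracycline, and Pfkm, the muscle type, at -0.09 (SE 0.29) and -0.0038 (SE 0.42). Pfkp, the platelet type, had 17182 and 9009 normalized counts in the fasted and 14413 and 16472 in the fed libraries without tetracycline. Only fasted library 2 was low, and without it the log2 change went from -0.24 (SE 0.33) to 0.15. With tetracycline Pfkp was at 6121 and 14175 against 16018 and 13695, with fasted library 1 low (log2 change -0.55, SE 0.51). That estimate was -0.07 without fasted library 1 and -1.28 without fasted library 2. The remaining upper steps were similar in spread: Gpi1, glucose phosphate isomerase, stood at 0.01 (SE 0.29) and 0.09 (SE 0.45), Aldoa, an aldolase, at -0.47 (SE 0.26) and 0.17 (SE 0.46), and Tpi1, triose phosphate isomerase, at -0.39 (SE 0.29) and -0.20 (SE 0.46).

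In lower glycolysis all 6 genes had negative estimates without tetracycline and 5 of 6 with it, and none was called. The median log2 change was -0.46 without and -0.27 with tetracycline. At an unadjusted p under 0.05, DESeq2 gave 3 of the 6 without tetracycline (Gapdh, Pgk1 and Pgam1) and 0 with it, and limma called 0 in either table. Proliferation markers had negative estimates in the same comparisons, 7 of 7 in each table with medians of -0.63 and -0.43, of which DESeq2 called 0, with 3 at an unadjusted p under 0.05 without tetracycline and 0 with it. Their summed normalized counts were 24755 and 31596 in the fasted and 49805 and 32074 in the fed libraries without tetracycline, and 34148 and 22156 against 32413 and 50703 with it. The part of this in the values of lower glycolysis was not tested. The lower glycolysis genes have processed copies elsewhere in the genome, and how reads were shared with such copies is uncertain.

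Gapdh, the dehydrogenase that opens the energy-yielding phase of glycolysis, had 110477 and 75030 normalized counts in the fasted and 114892 and 172770 in the fed libraries without tetracycline. Fasted library 1 and fed library 1 were close, and the sides did not overlap. The log2 change was -0.63 (SE 0.31, adjusted p = 0.436). Over the libraries left out, it ran from -0.94 without fasted library 1 to -0.31 without fed library 2. With tetracycline the values were 61284 and 155321 against 145778 and 130119 (log2 change -0.35, SE 0.53). There, fasted library 1 was the low one and fasted library 2 the highest of the 4, and the log2 change was 0.17 without the former and -1.17 without the latter.

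Pgk1, phosphoglycerate kinase, which makes the first ATP of the pathway, was at 18731 and 17296 in the fasted and 24913 and 29725 in the fed libraries without tetracycline. The fasted libraries lay close together and below both fed ones (log2 change -0.60, SE 0.25, adjusted p = 0.274). With tetracycline it was at 17164 and 36631 against 24291 and 26801, the fasted libraries lying on either side of the fed ones. The estimate was 0.07 (SE 0.49), with -0.57 without fasted library 2 and 0.52 without fasted library 1. Pgam1, phosphoglycerate mutase, showed the same arrangement without tetracycline, at 17937 and 17819 against 23913 and 28696 (log2 change -0.56, SE 0.25, adjusted p = 0.344), and stood at -0.22 (SE 0.42) with it.

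Eno1, an enolase, and Pkm, the pyruvate kinase of proliferating and most other tissues, had overlapping sides in both tables, with estimates from -0.36 to -0.25. Pklr, the pyruvate kinase of liver and red cells, was at 24792 and 10909 in the fasted and 17215 and 22280 in the fed libraries without tetracycline. Its fasted libraries were the highest and the lowest of the 4 (log2 change -0.15, SE 0.37), and without fasted library 2 the estimate was 0.33. With tetracycline both fasted libraries, 8228 and 17405, were below the fed ones at 20312 and 18884 (log2 change -0.61, SE 0.49). The estimate was -0.17 without fasted library 1 and -1.25 without fasted library 2.

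**Figure D3:**
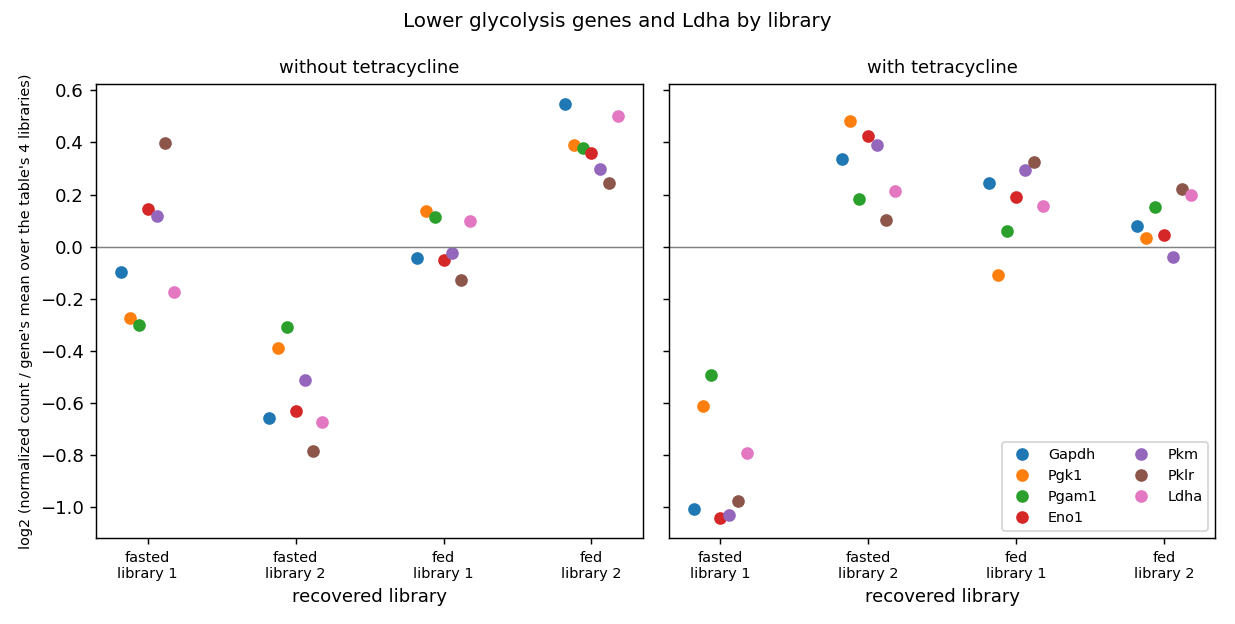
Each point is the log2 ratio of a gene's normalized count to its mean over the table's 4 libraries (y axis) for Gapdh, Pgk1, Pgam1, Eno1, Pkm, Pklr and Ldha in each library (x axis), without (left) and with (right) tetracycline. With tetracycline all 7 genes are lowest in fasted library 1, while fasted library 2 is not below the fed libraries for most of them; without tetracycline fed library 2 has values above 0 for all 7.

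The library pattern of lower glycolysis was as wide as the fasting change. The median over its 6 genes of the log2 ratio to each gene's own mean was 0.01 in fasted library 1, -0.57 in fasted library 2, -0.03 in fed library 1 and 0.37 in fed library 2 without tetracycline. With tetracycline it was -0.99 and 0.36 in the fasted and 0.22 and 0.06 in the fed libraries. In each table the fasted library with the lower value was also the one with the lower enterocyte sum, 239218 without and 130242 with tetracycline. It had the higher proliferation sum of the fasted side, 31596 against 24755 without and 34148 against 22156 with tetracycline. The part of these in the estimates was not tested.

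Ldha, which encodes the lactate dehydrogenase subunit known for turning pyruvate into lactate, had the lowest estimate of the 36 genes without tetracycline. The gene (ENSMUSG00000063229) lies on chromosome 7, plus strand, from 46841475 to 46855627 in GRCm38. Its normalized counts were 69290 and 49011 in the fasted and 83741 and 110868 in the fed libraries, with both fasted libraries below both fed ones. The fed level was 1.65 times the fasted level (log2 change -0.72, SE 0.29, 95% interval -1.29 to -0.15), and this did not pass the test (adjusted p = 0.247). With tetracycline it was at 43117 and 86718 against 83386 and 85793, so only fasted library 1 stood apart (log2 change -0.38, SE 0.47). Without that library the estimate was 0.04, and without fasted library 2 it was -0.97. Ldhb, the subunit of heart-type lactate dehydrogenase, had 17.9 to 64.6 normalized counts per library over both tables and estimates of -0.40 (SE 0.65) and -0.64 (SE 0.84), too wide to tell from 0.

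Upstream stretches of Ldha and Pgk1 are shown because these genes had the smallest unadjusted p-values among members with a negative estimate without tetracycline (0.0140 and 0.0172 by DESeq2's Wald test) and hold the hypoxia response core in a window. They cover the same 250 to 51 bases before a RefSeq start. Ldha has 2 such starts in the table, with stretches at chr7:46845554-46845753 and chr7:46846832-46847031, and that of Pgk1 lies at chrX:106186850-106187049, all on the plus strand. Capitals mark the motif letters, read on either strand.
Ldha, first start: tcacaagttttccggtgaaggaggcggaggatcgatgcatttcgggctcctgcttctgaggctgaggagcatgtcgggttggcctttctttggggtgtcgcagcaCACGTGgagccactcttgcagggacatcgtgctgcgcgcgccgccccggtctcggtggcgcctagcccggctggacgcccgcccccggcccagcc
Ldha, second start: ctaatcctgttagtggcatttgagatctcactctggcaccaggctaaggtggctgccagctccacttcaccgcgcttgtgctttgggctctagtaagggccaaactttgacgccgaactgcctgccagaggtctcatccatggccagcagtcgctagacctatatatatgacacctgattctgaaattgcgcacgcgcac
Pgk1: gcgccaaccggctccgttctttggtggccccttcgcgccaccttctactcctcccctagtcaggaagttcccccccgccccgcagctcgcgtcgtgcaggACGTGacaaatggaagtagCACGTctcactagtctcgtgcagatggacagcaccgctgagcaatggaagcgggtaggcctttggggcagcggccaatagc
The first Ldha stretch held the E-box CACGTG, and the second held no exact match to any of the 6 motifs. The Pgk1 stretch held ACGTG on the plus and on the minus strand. Of the 35 genes with an entry, 18 held ACGTG in a window, against 21.8% of all 27018 genes. Because a gene can have several windows, the share was also taken per window: 22 of the members' 55 windows held ACGTG, against 19.6% of all windows. The E-box was in 8 genes of the 35, against 8.09% of all genes. The cAMP response element was in 1 of the members' 55 windows, a window of Ldha, against 1.79% of all windows; it lies outside the stretches shown. By role, ACGTG was in 3 of 3 genes of hexose entry, 4 of 8 of upper glycolysis, 4 of 6 of lower glycolysis, 1 of 2 lactate dehydrogenases, 2 of 6 gluconeogenic genes, 2 of 4 kinases, 2 of 4 genes of the dehydrogenase and its phosphatases that had an entry, and 0 of 2 carrier subunits.

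Mpc1 and Mpc2 form the carrier that brings pyruvate into mitochondria. Mpc2 was at 3990 and 3770 in the fasted and 4916 and 6410 in the fed libraries without tetracycline, both fasted libraries being lower (log2 change -0.55, SE 0.27, adjusted p = 0.419). Mpc1 had overlapping sides, at 4556 and 3622 against 4436 and 5690 (log2 change -0.31, SE 0.28). With tetracycline the estimates were -0.05 (SE 0.36) for Mpc2 and 0.10 (SE 0.45) for Mpc1, with overlap in both genes.

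Over all 36 genes without tetracycline, both fasted libraries were above both fed ones for 5 genes and below for 11. Among all genes with an adjusted p, those shares were 21.7% and 22.9%. The 5 were Pck1, Pdk4, Slc37a4, Pfkfb2 and Pdha1. With tetracycline 6 genes lay above and 2 below, against 16.0% and 15.5% of all genes, and Pck1, Pdk4, Slc37a4 and Pdha1 were among the 6. A separation of this kind was common among all genes, so these counts describe the 36 and set nothing apart.

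A further 68 genes of the pathway, its transporters and its regulators were listed, of which 66 were in both tables and 65 had an adjusted p. Without tetracycline 2 rose and 1 fell at an adjusted p under 0.05 (all genes, 1.06% and 1.22%). DESeq2 gave 7 higher and 4 lower at an unadjusted p under 0.05 (all genes, 4.59% and 6.21%). G6pc, the catalytic subunit of glucose 6-phosphatase and the partner of Slc37a4 in releasing free glucose, was at 11268 and 4590 in the fasted and 2212 and 3550 in the fed libraries (log2 change 1.46, SE 0.41, adjusted p = 0.0206). Me3, a mitochondrial malic enzyme, was at 248 and 297 against 130 and 97.5 (log2 change 1.26, SE 0.37, adjusted p = 0.0360). Both genes had no overlap between sides.

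Aldoc, an aldolase, fell, at 549 and 486 against 933 and 1292 (log2 change -1.10, SE 0.30, adjusted p = 0.0152). With tetracycline 0 of the 65 were called by DESeq2, against 0.600% of all genes. There were 5 higher and 1 lower at an unadjusted p under 0.05 (all genes, 2.27% and 3.06%). G6pc was then at 2025 and 10836 against 1481 and 2187 (log2 change 1.81, SE 0.72, adjusted p = 0.584), again with fasted library 2 far above the rest. Me3 was at 421 and 199 against 86.6 and 71.2 (log2 change 1.98, SE 0.56, adjusted p = 0.0605), with fasted library 1 the higher one.

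Whether tetracycline altered the fasting change was tested gene by gene, subtracting the fasting change without the drug from that under it. The Wald test on the deposited values called 0 of the 36 genes, with 0 at an unadjusted p under 0.05, and limma on the recovered libraries also called 0, and 0 of all 16562 genes (0.00%). Over all 17571 genes, 4 were called (0.0228%) and 1.05% had an unadjusted p under 0.05. For Pdk4 the difference was 0.62 (SE 0.72, 95% interval -0.80 to 2.04), and for Pck1 it was 0.63 (SE 0.88, interval -1.10 to 2.36). In limma the Pck1 difference had the other sign, -0.18 (SE 1.25). No difference between the 2 tables was detected for the 36 genes. With intervals of this width, that does not show that the fasting changes were equal.

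The widest differences were those of Pfkfb3 at -1.14 (SE 0.85, interval -2.80 to 0.52) and Hk1 at -1.03 (SE 0.70, interval -2.41 to 0.34), both of which turned on single libraries. Slc37a4 followed with 0.69 (SE 0.70). The sign of the fasting change was the same in both tables for 29 of the 36 genes, 11 higher and 18 lower, beside 66.1% of all genes tested.

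Levels were also set side by side across the 2 tables, which the authors scaled separately, so no test was made. After centring on all genes, the log2 ratio of the level with to the level without tetracycline had a median over the 36 genes of -0.08 in fed mice and 0.06 in fasted mice. In fed mice it ran from -0.44 for Mpc2 to 0.90 for Hk1, whose fed library 1 was the high one. In fasted mice it ran from -0.94 for Pfkfb3 to 0.9997 for Pck1, with Pdk4 at 0.93. With this centring no member passed a log2 ratio of 1 in either direction, against 11.8% of all genes in fed and 7.05% in fasted mice. On the scaling as deposited 1 member did so in fasted mice, Pck1 at 1.06, and 0 did in fed mice, against 7.01% and 12.4% of all genes.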

How the data were processed

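The authors' 2 deposited tables hold their own comparison of fasted with fed crypts, 1 table without and 1 with tetracycline. The submitters' processing notes name Salmon, DESeq2 and mm10, with no version or role. Per the file headers the deposited columns are a mean signal of size-factor normalized counts, a log2 fold change and its standard error, a test score and p-values with an adjusted p. Per the labels' protocols, EDTA and shaking released the crypts, trypsin made single cells of them, and the library kit was non-directional, so overlapping and antisense genes cannot be told apart.

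In each deposited mean, every library contributes its whole count times a constant. These counts were solved for in 99.8% of the rows of each table; 41 rows without and 38 with tetracycline had means above 130000 and were not solved. The solved rows hold 75.0% and 76.1% of the summed deposited means. Where several solutions existed, the one that gave back the deposited fold change was kept, with a median difference of 2.6e-15 and 2.2e-15. The fits behind that match took the side read as fasted as the first level of the design. Between the libraries of a side, the median squared deviation over genes was 38.2 to 137 times the variance expected from counting, so no pair agreed within sampling noise; technical preparations of 1 sample were not tested for. There were 0 per-sample columns left unused.

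Calls are the authors' adjusted p under 0.05. The difference between tables used a two-sided Wald test with Benjamini-Hochberg adjustment over 17571 genes. A count model of the libraries had been planned for tables of counts; as the tables hold comparisons, the deposited test took its place. Alternatives added after seeing the data used limma 3.58.1 in R 4.3.3 with trend on log2(normalized count + 1) for genes with a mean of at least 10. Levels across tables used group means rebuilt from mean and fold change, with pseudocount 1. Other work used Python 3.11.15, numpy 2.4.6, scipy 1.17.1 and pandas 2.3.3. The recovery of counts and the methods of the difference test and the limma fit were tried on simulated data. The other steps had no such test. Intervals are at 95%. The size factors spanned 1.17-fold without and 1.75-fold with tetracycline.

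Given with values per library were the called members, members whose difference between tables had an unadjusted p under 0.05 (0 genes), and the 3 largest rises and 3 largest falls of each table with a mean of at least 50; others were added after their values were seen. The members and gene lists were chosen with earlier results of these data known. Gene positions come from GENCODE and upstream sequences from RefSeq, in the builds GRCm38 and GRCm38.p6.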

Additional observations from a re-analysis of the deposited data

How the results depend on the processing

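The count of called members was the same at an adjusted p of 0.01, with adjustment over every row, and with adjustment over rows with a mean of at least 50, in both tables. At 0.1, 3 members were called without tetracycline and 1 with it. With limma on the recovered libraries, chosen after seeing the data, 1 member was called without and 0 with tetracycline. Leaving out each library in turn gave limma counts of 0 to 5 without tetracycline and of 0 to 3 with it, where the lone library of a side was assumed to vary like the other side. The 5 (Fbp1, Pck1, Pdk4, Pfkfb3 and Slc37a4) arose without fasted library 2, where 4.47% of all genes were called, and the 0 without fed library 1 (0.178%), and the 3 (Pck1, Pdk4 and Slc37a4) arose without fasted library 1 (1.55%), against 0.452% and 0.00% of all genes on all libraries. The cause was not tested.

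The median change of the members ranged over left-out libraries from -0.22 to -0.10 without tetracycline and from -0.38 to 0.23 with it, changing sign in the latter. Centring, pseudocounts of 1 and 10 and the filter on the mean moved either median by less than the spread. For the 10 genes chosen by the rule on values per library, each library was also left out in turn. This changed the sign of 3 without tetracycline (Pfkfb3 to -0.22, Pfkp to 0.15, Pklr to 0.33) and of 4 with it (Pfkfb3 to 0.52, Pgk1 to -0.57, Gapdh to 0.17, Ldha to 0.04), the last pair moving by less than 1 SE. The other members were not run this way. Over the libraries left out, Pfkfb3 ran from -0.22 to 1.56 without and from -1.78 to 0.52 with tetracycline, and without tetracycline Pfkp ran from -0.78 to 0.15 and Pklr from -0.86 to 0.33. With it, Hk1 ran from -1.97 to -0.35, Slc37a4 from 0.34 to 2.25, Pfkp from -1.28 to -0.07, Pklr from -1.25 to -0.17, Gapdh from -1.17 to 0.17 and Ldha from -0.97 to 0.04. Pdk4 ran from 1.78 to 3.04 without and from 1.69 to 3.54 with tetracycline, Pck1 from 1.14 to 2.61 and from 0.23 to 3.14. The difference between tables called 0 members under every alternative run, by the Wald test and limma. No paired analysis was possible because the labels list 1 sample per group and the recovered libraries carry no replicate numbers. Counts of this depth are limited by the spread between libraries, and n is 2 per side.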
